A study of Mus musculus with 4 samples.

Results

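The genes described here are 10 transcripts of the conducting airway, the secretoglobins Scgb1a1, Scgb3a1 and Scgb3a2, the mucosal defence genes Bpifa1, Bpifb1, Reg3g and Tff2, and the enzymes Cyp2f2, Cbr2 and Aldh1a1. They were chosen by name, as rows of the count tables that carry these symbols, and all 10 are among the 32285 genes of the tables. They were picked with their levels in these lungs already known, including that of Scgb1a1 in droplets without a nucleus, so their levels in classes and in empty droplets are given as a description with no test. Lung nuclei came from 2 wild-type (WT) mice labelled C57/BL6J and 2 VEcad-TRF2DN-Tg (Tg) mice, all labelled as 8 to 9 weeks old. Per the study's methods, the Tg line also has a C57/BL6J background and was kept heterozygous by crosses to WT mice of that strain. The transgene is a dominant-negative form of TRF2, a telomere-binding protein, driven in endothelial cells (ECs) by the vascular endothelial cadherin promoter, and it was not designed to act in the airway epithelium. The study's methods name males as the mice it usually used, without giving the sex of these 4, and per its text the lungs used for nuclei came from mice kept in chronic hypoxia, so WT and Tg mice share that exposure. Each library is 1 mouse, numbered replicate 1 and 2 in each genotype.

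Club cells are the dome-shaped secretory cells that line the small airways of the mouse. They secrete secretoglobins, small proteins of the airway lining fluid of which Scgb1a1 (also called CC10 or uteroglobin) is the best known, and they clear inhaled chemicals with enzymes such as the cytochrome P450 Cyp2f2. In the larger airways and their glands, goblet and serous cells add mucins and antimicrobial proteins. Messenger RNA of secreted proteins is held mostly in the cytoplasm, on the endoplasmic reticulum, and the cytoplasm is stripped away when nuclei are isolated.

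In the GENCODE mouse annotation (release M21, GRCm38, the same assembly as the mm10 build named for the files), the 10 genes differ widely in length. Scgb1a1 (ENSMUSG00000024653) lies at chr19:9083636-9087958 and spans 4323 bases, of which 89.0% are intron. Scgb3a1 spans 1509 bases on chromosome 11, Scgb3a2 3111 bases, Reg3g 2604 bases on chromosome 6, Tff2 3234 bases on chromosome 17 and Bpifa1 6340 bases on chromosome 2. Cbr2, at chr11:120729489-120732114, is as short as these with 2626 bases. Cyp2f2 at chr7:27119909-27133660 spans 13752 bases, Bpifb1 at chr2:154190818-154220369 spans 29552 bases, and Aldh1a1 at chr19:20492715-20643465 spans 150751 bases with 96.7% intron. The median protein-coding gene of this annotation spans 17403 bases, and of the 10 genes only Bpifb1 and Aldh1a1 are longer. Intronic reads were counted in these tables, so a long gene offers more unspliced sequence to count, and counts are compared below only for the same gene between groups of droplets.

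The promoters of 4 of the genes are shown because they form pairs in which 1 gene was at least 1.5-fold above ECs in all 4 mice in an airway class and its partner was so in no class. Each is the stretch of 250 bases before the RefSeq start site on the gene's strand, from the RefSeq table for GRCm38.p6, which held windows for 7 of the 10 genes. Capitals mark CAAGTG on either strand, the core of NKX2-1-type homeodomain sites, or TATAAA on either strand, the TATA box. Cyp2f2 lies on the plus strand at chr7:27119705-27119954, Scgb3a1 on the plus strand at chr11:49663345-49663594, Bpifb1 on the plus strand at chr2:154190568-154190817, and Bpifa1 on the plus strand at chr2:154142630-154142879.
Cyp2f2: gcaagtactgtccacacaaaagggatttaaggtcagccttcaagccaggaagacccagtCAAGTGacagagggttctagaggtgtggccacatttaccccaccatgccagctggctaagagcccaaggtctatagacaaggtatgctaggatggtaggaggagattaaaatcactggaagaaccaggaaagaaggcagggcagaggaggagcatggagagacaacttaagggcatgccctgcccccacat
Scgb3a1: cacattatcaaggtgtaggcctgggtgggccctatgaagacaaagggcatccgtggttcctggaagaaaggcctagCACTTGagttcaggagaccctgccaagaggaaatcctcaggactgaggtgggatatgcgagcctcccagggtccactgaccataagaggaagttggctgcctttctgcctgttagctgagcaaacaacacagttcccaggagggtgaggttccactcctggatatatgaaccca
Bpifb1: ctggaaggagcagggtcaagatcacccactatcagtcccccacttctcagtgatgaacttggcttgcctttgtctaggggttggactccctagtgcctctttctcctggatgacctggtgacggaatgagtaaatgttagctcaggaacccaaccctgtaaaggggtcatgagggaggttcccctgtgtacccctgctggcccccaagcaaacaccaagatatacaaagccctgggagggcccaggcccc
Bpifa1: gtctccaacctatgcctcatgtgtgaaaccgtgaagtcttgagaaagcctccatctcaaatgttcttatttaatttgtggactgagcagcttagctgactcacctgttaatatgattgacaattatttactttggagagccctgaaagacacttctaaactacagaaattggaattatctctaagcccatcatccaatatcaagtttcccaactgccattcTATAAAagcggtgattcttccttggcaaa

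Cyp2f2 and Scgb3a1 each hold 1 CAAGTG, on the plus and the minus strand of the gene, and Bpifa1 holds 1 TATAAA. Bpifb1, whose start lies in the same cluster of BPI-fold genes on chromosome 2, holds neither in this window or in that of its second listed start. CAAGTG occurs in 11.6% and TATAAA in 12.4% of the 32851 promoter windows searched the same way. A C/EBP-type site, TTGCNNAA on either strand, was found before 1 of the 2 listed starts of Aldh1a1 and in no window of the other 6 genes, against 9.56% of all windows, and TGTTTAC, a forkhead-type site, in none of them, against 3.17%. These matches describe letters, not binding.

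The tables are unfiltered and hold unique molecular identifiers (UMIs, each a captured RNA molecule) for every barcode, 125261739 to 182014706 UMIs per mouse. Barcodes with 1500 or more UMIs, of which each mouse had 25269 to 44000, were taken as candidate nuclei, and barcodes with 300 to 800 UMIs, 2732 to 18387 per mouse, as empty droplets, whose UMIs are RNA free in the suspension. Any pair of libraries shared 176 to 475 of these barcodes, 0.697% to 1.30% of those of the smaller one. Candidate nuclei were assigned to classes from marker genes and then from all other genes except the 10 described here. Calls from markers alone had been planned as the main ones and were replaced after the data were seen. They gave only 26, 74, 51 and 102 club-like nuclei in WT replicates 1 and 2 and Tg replicates 1 and 2, and results that differ with them are given below. Barcodes that no class took numbered 16129 and 25575 in WT replicates 1 and 2 but 2211 and 10948 in Tg replicates 1 and 2, and 207 to 785 per mouse that held markers of several lineages were set aside as doublets. A class called club-like held 1574 and 904 nuclei in WT replicates 1 and 2, and 3423 and 5026 in Tg replicates 1 and 2. Of its markers, Gabrp was at 379 to 466 UMIs per 1000000 (CPM) there against 42.8 to 74.1 in EC-like nuclei, and Cckar, Cldn10 and Pon1 were also higher in club-like than in EC-like nuclei in every mouse. Of the other 7 of its 11 markers, Chad, Gp2 and Lypd2 were below the empty droplets of the same mouse in all 4 mice, Muc5b and Sult1d1 in 3 and Aldh3a1 in 2, and Il13ra2 was at 0.169 CPM or less. No marker was among its 10 leading genes, which include Kcnk2, Col23a1 and Nwd2. Its marker Muc5b was higher in a second secretory class, where Gabrp was at 379, 340, 509 and 332 CPM in the same order of mice. That class is called by its genes Tacr1, Lgr6 and Vtcn1 and held 724, 1115, 1559 and 1428 nuclei in the same order of mice. Tacr1 and Vtcn1 were far above empty droplets there in every mouse, but Lgr6 was at 207, 2.33, 406 and 82.9 CPM, so that WT replicate 2 almost lacked it. Terf2, which encodes TRF2, was at 52.7 and 52.5 CPM in EC-like nuclei of the WT mice and at 44.6 and 49.0 CPM in those of the Tg mice, and whether reads of the transgene are counted there was not tested.

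Scgb1a1 took a larger part of the free RNA in both Tg mice than in either WT mouse. In empty droplets it was at 15011 and 15673 CPM in WT replicates 1 and 2, 128052 CPM in Tg replicate 1 and 43359 CPM in Tg replicate 2. Scgb3a2, a secretoglobin of the small airways, was at 755 and 392 CPM in WT and at 4799 and 1992 CPM in Tg mice. The genotypes did not overlap for either gene, and Tg replicate 1 was 2.95-fold above Tg replicate 2 for Scgb1a1 and 2.41-fold for Scgb3a2. Together the 10 genes made up 2.27% and 2.02% of the UMIs of empty droplets in WT mice, and 14.8% and 5.48% in Tg mice. The log2 ratio of the genotype means was 2.24, and 1.35 without Tg replicate 1.

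**Figure D1:**
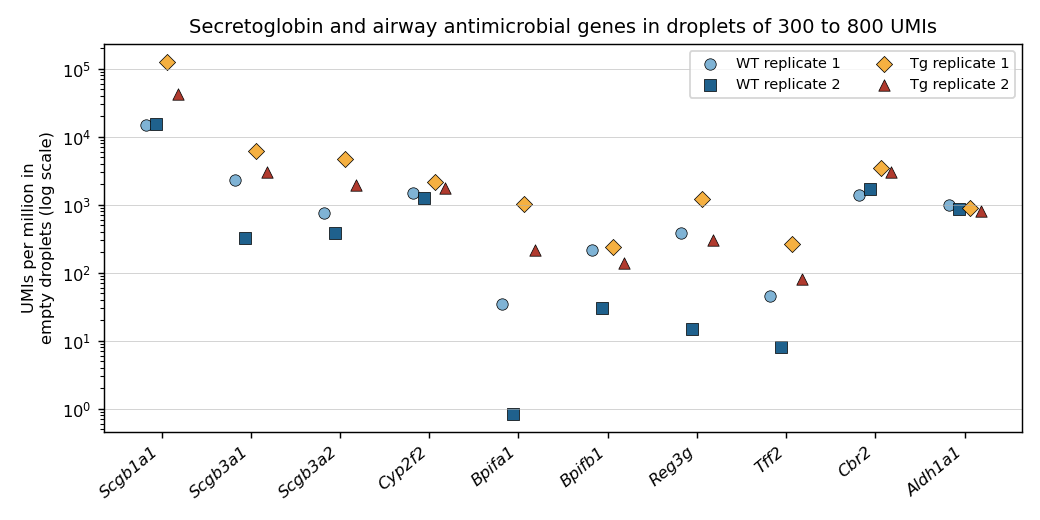
Level of each gene in droplets of 300 to 800 UMIs, in CPM on a log scale, with 1 point for each mouse. Both Tg mice are above both WT mice for 7 of the 10 genes, all but Bpifb1, Reg3g and Aldh1a1 (26.8% of all 17987 genes with at least 10 UMIs separate in this direction), whereas WT replicate 2 sits far below WT replicate 1 for Scgb3a1, Bpifa1, Bpifb1, Reg3g and Tff2, and Aldh1a1 stays between 824 and 995.

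For genes known from larger airways and glands, the 2 WT mice stood far apart. Scgb3a1, a secretoglobin of the larger airways, was at 2302 CPM in empty droplets of WT replicate 1 and at 328 CPM in WT replicate 2, a 7.02-fold gap, against 6305 and 3028 CPM in the Tg mice. Reg3g, a lectin that kills Gram-positive bacteria, was at 384, 14.8, 1215 and 305 CPM in WT replicates 1 and 2 and Tg replicates 1 and 2, so that Tg replicate 2 was below WT replicate 1. Bpifb1, a secreted BPI-fold protein, was at 217, 30.4, 238 and 138 CPM in the same order, and its genotypes overlapped too. Bpifa1 (SPLUNC1), a surfactant-like antimicrobial protein of the upper airway, was at 34.7 CPM in WT replicate 1, 1020 CPM in Tg replicate 1 and 217 CPM in Tg replicate 2. In WT replicate 2 it had 6 UMIs, or 0.840 CPM, with an exact Poisson 95% interval of 0.308 to 1.83 CPM that covers counting error only. Tff2, a trefoil peptide secreted with mucus, was at 46.1 and 8.26 CPM in WT and 264 and 81.1 CPM in Tg mice.

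Markers of other airway cells moved with the gap between the WT mice. The summed level of 12 ciliated cell markers in empty droplets was 2212 CPM in WT replicate 1, 899 CPM in WT replicate 2, 1365 CPM in Tg replicate 1 and 768 CPM in Tg replicate 2, with none of the 12 at 0. Muc5b, the gel-forming mucin of airway secretory cells, was at 464, 121, 174 and 129 CPM in the same order. The 11 club cell markers, which include Muc5b, summed to 944, 418, 814 and 517 CPM. Both sums and Muc5b were higher in WT replicate 1 than in WT replicate 2, but none of these separated the genotypes. Single club cell markers did not all show the gap. Gabrp was at 144 and 119 CPM and Cckar at 63.0 and 72.2 CPM in WT replicates 1 and 2. Cldn10 was there at 34.2 and 31.4 CPM and Pon1 at 22.1 and 26.5 CPM. The share of mitochondrial UMIs in empty droplets, by contrast, was 0.126% and 0.151% in WT and 0.785% and 0.685% in Tg mice, and Sftpc, the alveolar type 2 (AT2) surfactant gene, was at 1092 and 2454 CPM in WT and 15627 and 12937 CPM in Tg mice. The part of these differences in the levels of the 10 genes was not tested.

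The 3 enzymes were less variable. Cyp2f2 was at 1508 and 1254 CPM in empty droplets of WT mice and at 2169 and 1789 CPM in those of Tg mice. Cbr2, a carbonyl reductase abundant in lung mitochondria, was at 1404 and 1688 CPM in WT and 3528 and 3027 CPM in Tg mice. Aldh1a1, which makes retinoic acid from retinaldehyde, was at 995, 859, 892 and 824 CPM and overlapped between genotypes.

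With nuclei of all depths pooled, Scgb1a1 was at nearly the same level in club-like as in EC-like nuclei. ECs should not make it. It was at 6855 CPM in club-like and 7040 CPM in EC-like nuclei of WT replicate 1, and at 7189 and 7380 CPM in WT replicate 2. In Tg replicate 1 the same levels were 43609 and 43710 CPM, and in Tg replicate 2 they were 16198 and 16070 CPM. The club-like over EC-like ratio therefore stayed between 0.974 and 1.01 in the 4 mice while the level itself differed several-fold between them. It was 1.02 to 1.12 with a minimum of 3000 UMIs and 1.04 to 1.09 with mixed nuclei kept, slightly above 1 in all 4 mice. Club-like nuclei had a higher median depth than EC-like nuclei in each mouse, and the level of Scgb1a1 fell with depth (below). In nuclei of at least 3000 and under 6000 UMIs it was at 6801, 8340, 35603 and 15017 CPM in club-like nuclei. EC-like nuclei of that depth had 6537, 7555, 35959 and 13492 CPM, in the order WT replicates 1 and 2, Tg replicates 1 and 2. Over 14 other classes with at least 20 nuclei in each mouse, the median over mice of the ratio to EC-like nuclei ran from 0.663 to 1.26, highest in T cell-like nuclei. These classes differed in depth too, and the part of depth in this range was not tested. The lymphatic EC-like class among them held 1673 nuclei in Tg replicate 2. Its marker Prox1 was at 18.1 CPM there against 462 to 634 CPM in the other mice, so the label does not hold in that mouse. Set against the empty droplets of the same mouse, Scgb1a1 was at 0.457, 0.459, 0.341 and 0.374 of their level in club-like nuclei and at 0.469, 0.471, 0.341 and 0.371 in EC-like nuclei.

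With the main class calls, Scgb3a2 and Scgb3a1 were at most 1.01 times the EC-like level in club-like nuclei. Scgb3a2 was at 287, 131, 1506 and 664 CPM in club-like nuclei and at 307, 140, 1574 and 704 CPM in EC-like nuclei, in the order WT replicates 1 and 2, Tg replicates 1 and 2. Scgb3a1 was at 681, 73.5, 1922 and 1096 CPM in club-like and at 803, 109, 2068 and 1087 CPM in EC-like nuclei, a ratio of 0.673 to 1.01. With calls from markers alone, the median ratio over mice was 1.82 for Scgb3a1 (1.08 to 1.87), 1.00 for Scgb3a2 (0.967 to 1.21) and 0.970 for Scgb1a1. The ratio of Scgb3a2 was 0.933 to 0.956 with the main calls. It was 1.01 to 1.04 both with a minimum of 3000 UMIs and with mixed nuclei kept. Scgb3a1 was then at 0.756 to 1.10 and 0.777 to 1.09. The statement on both genes thus depends on how nuclei were chosen and classed. In the class of Tacr1, Lgr6 and Vtcn1, Scgb3a1 was at 1.05, 1.53, 1.53 and 0.905 times the EC-like level, and in T cell-like nuclei at 1.41, 1.34, 1.29 and 1.34 times. None of the 3 secretoglobins was 1.5-fold above EC-like nuclei in all 4 mice in any class.

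**Figure D2:**
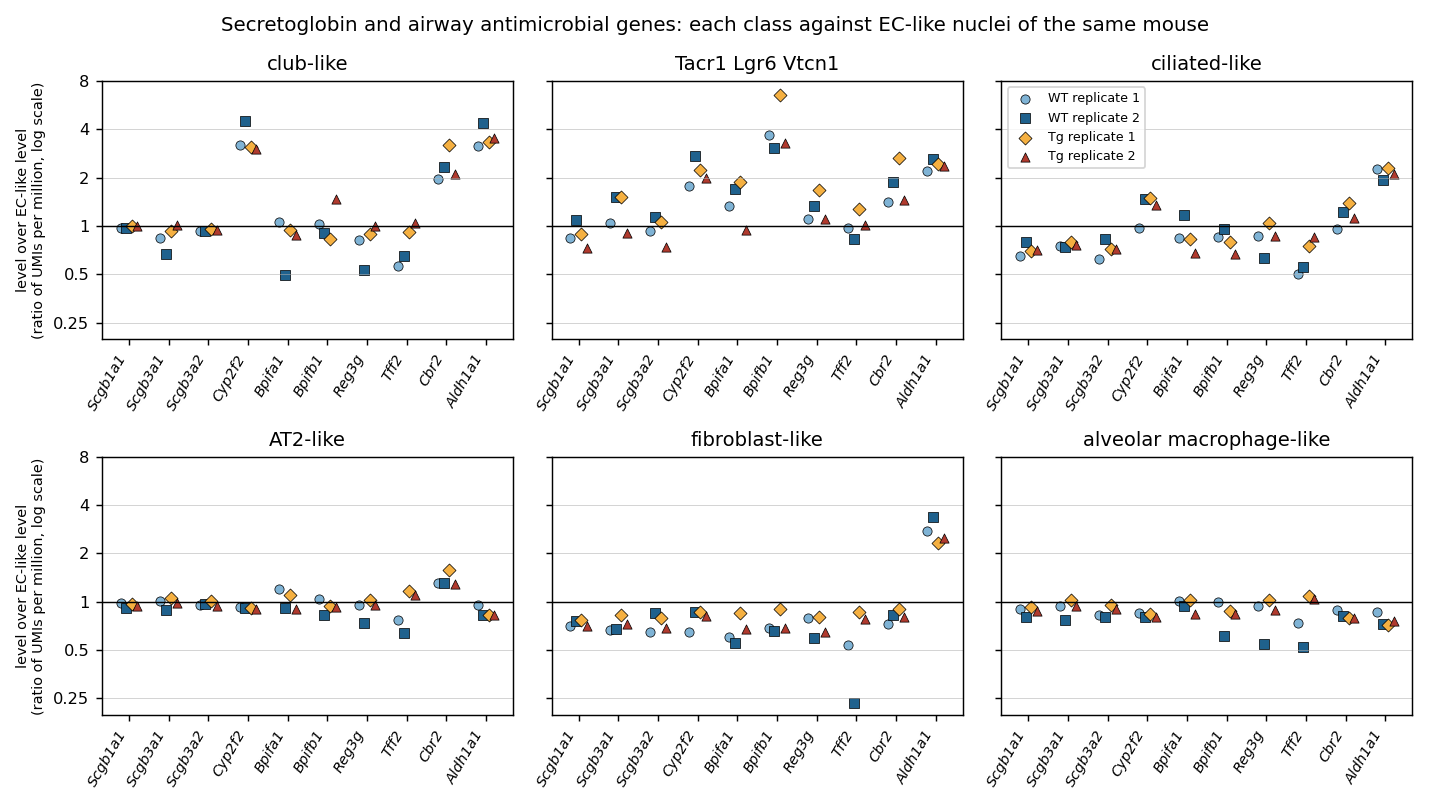
Ratio of the level of each gene in 6 classes to its level in EC-like nuclei of the same mouse, on a log scale, with 1 point for each mouse and a line at 1. Secretoglobins lie near or below 1, apart from Scgb3a1 at 1.53 in 2 mice in the class of Tacr1, Lgr6 and Vtcn1. Cyp2f2, Cbr2 and Aldh1a1 rise above 1 in club-like nuclei and in the class of Tacr1, Lgr6 and Vtcn1. Bpifb1 rises in the latter class, and Aldh1a1 also in ciliated-like and fibroblast-like nuclei. Bpifa1 in WT replicate 2 rests on 2 UMIs in club-like and 2 in EC-like nuclei.

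Of the defence genes, Bpifb1 stood above ECs in the class of Tacr1, Lgr6 and Vtcn1. It was at 320, 48.9, 652 and 213 CPM there, against 86.6, 15.9, 99.5 and 64.7 CPM in EC-like nuclei, in the order WT replicates 1 and 2, Tg replicates 1 and 2. The ratio was 3.08 to 6.55 and the level was also 1.47, 1.61, 2.74 and 1.55 times that of empty droplets. With calls from markers alone the ratio in that class was 8.03 in the median mouse (3.88 to 9.18). In club-like nuclei Bpifb1 was at 89.4, 14.4, 82.7 and 95.8 CPM, and only Tg replicate 2 was clearly above its ECs. With calls from markers alone, however, Bpifb1 in club-like nuclei was 5.97 times the EC-like level in the median mouse (2.81 to 7.07). Muc5b followed the same class, with 1172, 293, 771 and 200 CPM there and 42.3 to 173 CPM in EC-like nuclei.

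Bpifa1, Reg3g and Tff2 were at the EC-like level or below it in club-like nuclei of most mice. Reg3g was at 149, 4.86, 370 and 128 CPM in club-like nuclei against 182, 9.07, 415 and 128 CPM in EC-like nuclei. Tff2 was at 13.9, 4.68, 74.5 and 29.8 CPM against 24.7, 7.18, 81.4 and 28.5 CPM, and rests on as few as 25 UMIs in club-like nuclei of WT replicate 2. Bpifa1 was at 12.8, 336 and 86.5 CPM in club-like nuclei of WT replicate 1 and Tg replicates 1 and 2, against 12.2, 357 and 98.8 CPM in EC-like nuclei. With calls from markers alone, the median ratio to EC-like nuclei was 1.48 for Reg3g (0.800 to 2.10), 1.68 for Tff2 (1.00 to 2.36) and 1.69 for Bpifa1, which gave a value in 2 mice. The class of Tacr1, Lgr6 and Vtcn1 had Reg3g at 1.11, 1.34, 1.69 and 1.10 times the EC-like level, above it in all 4 mice. Bpifa1 was there at 1.34, 1.71, 1.89 and 0.949 times, the second value resting on 5 UMIs in that class and 2 in EC-like nuclei. After each nucleus was thinned to 1500 UMIs, the variance of Bpifb1 over nuclei of that class was 2.60, 2.09, 3.07 and 3.21 times its mean in the 4 mice, against 0.996, 0.977, 1.20 and 1.04 times in EC-like nuclei. The UMIs of Bpifb1 were thus less evenly spread over nuclei in that class than in ECs. For Bpifa1 the same figures were 0.983, 0.998, 2.17 and 1.44 against 0.986, 0.999, 1.08 and 1.07. In the WT mice the means were only 0.0180 and 0.0027 UMIs per nucleus, and whether an uneven spread could show at such means was not tested.

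Cyp2f2 was highest in club-like nuclei in every mouse. It was at 2202 and 2616 CPM in club-like nuclei of WT mice and at 3178 and 2710 CPM in those of Tg mice, against 688, 579, 1016 and 899 CPM in EC-like nuclei. The ratio was 3.02 to 4.52, and club-like nuclei held 1.46, 2.09, 1.47 and 1.51 times the level of empty droplets. With calls from markers alone the ratio to EC-like nuclei was 1.86 to 4.61. The class of Tacr1, Lgr6 and Vtcn1 came next, with 1224, 1583, 2273 and 1782 CPM, and ciliated-like nuclei had 672, 848, 1514 and 1221 CPM. AT2-like nuclei, with 637, 528, 926 and 807 CPM, were slightly below EC-like nuclei in all 4 mice.

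Aldh1a1 was raised in 4 classes. Club-like nuclei had 1476, 1918, 1714 and 1670 CPM, against 468, 434, 511 and 475 CPM in EC-like nuclei, a ratio of 3.15 to 4.41, or 2.12 to 4.00 with calls from markers alone. Fibroblast-like nuclei had 1292, 1459, 1189 and 1191 CPM, the class of Tacr1, Lgr6 and Vtcn1 had 1031, 1144, 1238 and 1119 CPM, and ciliated-like nuclei had 1068, 844, 1174 and 996 CPM. Each of these was at least 1.5-fold above EC-like nuclei in all 4 mice. The order of the last 3 classes changed from mouse to mouse, with the widest gap in WT replicate 2, while club-like nuclei were above the other classes in all 4 mice.

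Cbr2 differed between mice in club-like nuclei more than the other enzymes did. It was at 1383 and 2076 CPM in WT replicates 1 and 2, and at 6093 and 3418 CPM in Tg replicates 1 and 2. EC-like nuclei had 701, 890, 1900 and 1627 CPM, so the ratio was 1.97 to 3.21, highest in Tg replicate 1, and 1.44 to 3.11 with calls from markers alone. The class of Tacr1, Lgr6 and Vtcn1 had 995, 1669, 5068 and 2366 CPM, or 1.42, 1.87, 2.67 and 1.45 times the EC-like level. AT2-like nuclei, with 915, 1159, 3012 and 2089 CPM, were 1.28 to 1.59 times the EC-like level.

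Shares of nuclei with a UMI gave no contrast for Scgb3a2, and could give none for Scgb1a1, which every nucleus of both classes held. Every club-like nucleus and every EC-like nucleus had at least 1 UMI of Scgb1a1, at median depths of 2563 to 5058 and 2245.5 to 3147 UMIs. After thinning to 1500 UMIs, a mean of 10.9, 11.6, 70.7 and 27.5 UMIs of Scgb1a1 remained per club-like nucleus and 11.8, 12.6, 72.1 and 26.9 per EC-like nucleus. A UMI of Scgb3a2 was then found in 38.1%, 20.4%, 88.9% and 65.8% of club-like and 37.6%, 21.1%, 90.3% and 68.8% of EC-like nuclei, and the order of the 2 classes differed between mice. Before thinning, 977 of 1574, 476 of 904, 3354 of 3423 and 4470 of 5026 club-like nuclei had one. For Cyp2f2 the thinned shares were 94.1%, 96.5%, 97.5% and 97.0% of club-like nuclei against 63.4%, 58.2%, 75.5% and 72.2% of EC-like nuclei. Before thinning, 1558 of 1574, 900 of 904, 3407 of 3423 and 5003 of 5026 club-like nuclei had one, against 735 of 878, 605 of 705, 1464 of 1656 and 1628 of 1804 EC-like nuclei. No nucleus was left out by the thinning, since all had at least 1500 UMIs.

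The level also depended on the depth of the nucleus in different ways. In club-like nuclei of at least 1500 and under 3000 UMIs Scgb1a1 was at 8125, 9089, 51365 and 22144 CPM, and in those of 6000 or more UMIs at 5566, 6330, 31155 and 10467 CPM. Cyp2f2 fell less over the same range in 3 mice and rose in WT replicate 2, from 2248, 2094, 3198 and 2704 CPM to 2113, 2714, 2963 and 2521 CPM. Aldh1a1 went from 1349, 1661, 1648 and 1574 CPM to 1666, 2030, 1821 and 1707 CPM. In the deepest nuclei of the WT mice, Scgb1a1 was 1.48-fold above EC-like nuclei of the same depth in both WT replicates, from 174 and 342 club-like and 48 and 72 EC-like nuclei, whereas in the Tg mice the ratio was 1.03 and 0.949. Scgb3a2 was likewise higher in these deepest club-like than EC-like nuclei in WT mice, at 211 against 172 CPM and 109 against 72.8 CPM. It was slightly higher in Tg replicate 2, at 392 against 384 CPM, but not in Tg replicate 1, at 917 against 1044 CPM.

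**Figure D3:**
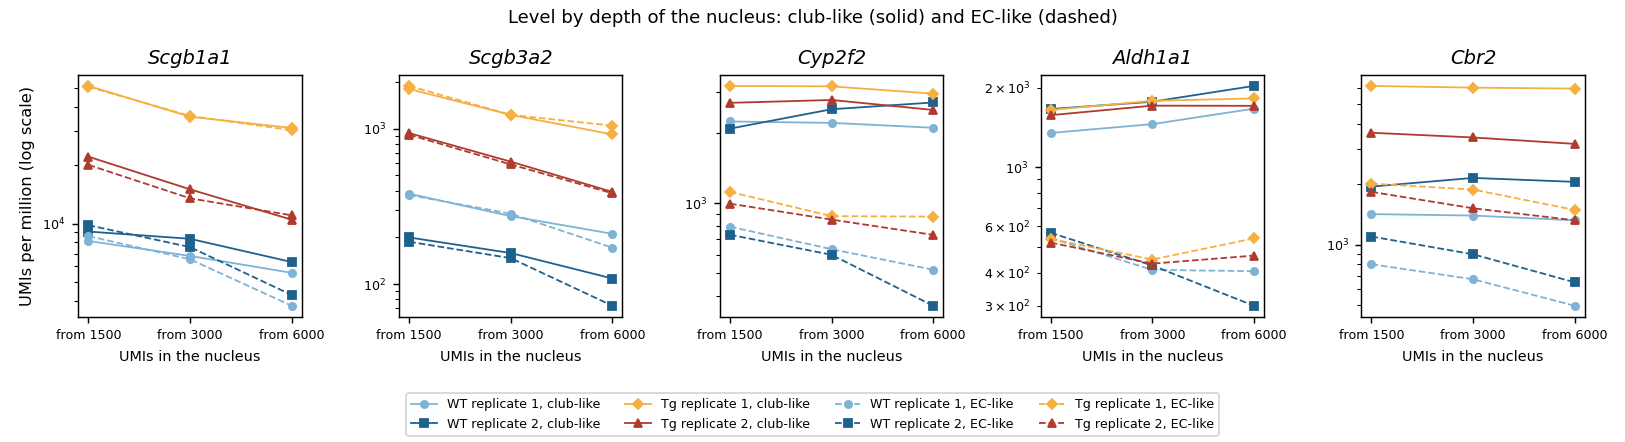
Level in CPM on a log scale (each panel has its own range) against the number of UMIs in the nucleus (from 1500, 3000 or 6000 UMIs up to the next), for club-like nuclei (solid lines) and EC-like nuclei (dashed lines) of each mouse. Solid and dashed lines of a mouse run close together and fall for Scgb1a1 and Scgb3a2, parting in the WT mice from 6000 UMIs, and stay apart for Cyp2f2, Aldh1a1 and Cbr2.

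Most molecules of Scgb1a1 were outside the classed nuclei in every mouse. Barcodes of 1500 or more UMIs, classed or not, held 68229455 of 125261739 UMIs in WT replicate 1 and 109284702 of 146133943 in WT replicate 2. They held 74988152 of 128645180 in Tg replicate 1 and 142050879 of 182014706 in Tg replicate 2. The share of all UMIs in classed nuclei is not given, so the shares below are not read as a trait of these genes. Over all barcodes Scgb1a1 was at 11577, 11182, 65845 and 19835 CPM in WT replicates 1 and 2 and Tg replicates 1 and 2. This was above its club-like level in each mouse, so club-like nuclei held less of Scgb1a1 than of all UMIs. Cyp2f2 was at 1181, 983, 1663 and 1310 CPM over all barcodes, below its club-like level in each mouse. Club-like nuclei held 2.80%, 2.35%, 5.01% and 8.10% of all Scgb1a1 UMIs of a library, and all classed nuclei together held 16.5%, 22.4%, 29.5% and 44.5%. Club-like nuclei held more of the Cyp2f2 UMIs, at 8.80%, 9.73%, 14.5% and 20.5%, and of the Aldh1a1 UMIs, at 8.26%, 9.80%, 15.6% and 22.3%. All classed nuclei held 23.2%, 31.3%, 41.8% and 55.9% of the Cyp2f2 UMIs and 25.8%, 35.1%, 48.0% and 60.9% of the Aldh1a1 UMIs.

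The second question was whether these genes differed between genotypes within a class, which was tested on UMIs summed per mouse and class with edgeR's quasi-likelihood test over all genes, with Benjamini-Hochberg adjustment. In club-like nuclei 14.8% of the 15351 genes tested were called at an adjusted p under 0.05, and 5 of the 10 genes described here were among them, all higher in Tg mice. Scgb1a1 had a log2 fold change of 2.07 ± 0.49 (SE, adjusted p = 0.041), Scgb3a2 2.35 ± 0.51 (adjusted p = 0.035), Bpifa1 4.93 ± 1.08 (adjusted p = 0.035, with 2 UMIs in WT replicate 2), Tff2 2.44 ± 0.61 (adjusted p = 0.046) and Cbr2 1.43 ± 0.35 (adjusted p = 0.044). Scgb3a1, at 1.96 ± 0.89, Reg3g, at 1.65 ± 1.17, Bpifb1, at 0.72 ± 0.67, Cyp2f2, at 0.25 ± 0.20, and Aldh1a1, at -0.05 ± 0.19, were not called. Both Tg mice were above both WT mice for 7 of the 10, all but Bpifb1, Reg3g and Aldh1a1, against 38.5% of the 15351 genes tested. The median of the 10 was 1.81 against 0.03 over all genes tested. The genotype difference of Scgb1a1 in these lungs was known when the genes were picked, so the count is no independent evidence. In the same nuclei Sftpc was at 384 and 764 CPM in WT and 5131 and 4278 CPM in Tg mice. Mitochondrial UMIs made up 0.0477% and 0.0611% in WT and 0.305% and 0.308% in Tg mice. The part of these differences in the levels of the 10 genes was not tested.

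The 10 genes were read in the same way in AT2-like nuclei and in EC-like nuclei, which should not make most of these proteins. In EC-like nuclei, where 10.3% of 14040 genes were called, Scgb1a1 was at 2.07 ± 0.50 (edgeR, adjusted p = 0.046), Scgb3a2 at 2.36 ± 0.50 (adjusted p = 0.034), Bpifa1 at 5.14 ± 0.93 (adjusted p = 0.022) and Cbr2 at 1.16 ± 0.22 (adjusted p = 0.024), and these 4 were called. In AT2-like nuclei, where 12.6% of 16379 genes were called, Scgb3a2 at 2.42 ± 0.56 (edgeR, adjusted p = 0.047) and Cbr2 at 1.33 ± 0.26 (adjusted p = 0.035) were called, while Scgb1a1 at 2.12 ± 0.54 had an adjusted p of 0.055. The 3 comparisons use the same 4 mice, and the free RNA of a mouse enters all its classes. Since the genotype difference of Scgb1a1 was known when the genes were picked, the calls in these 2 classes are no independent evidence either.

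**Figure D4:**
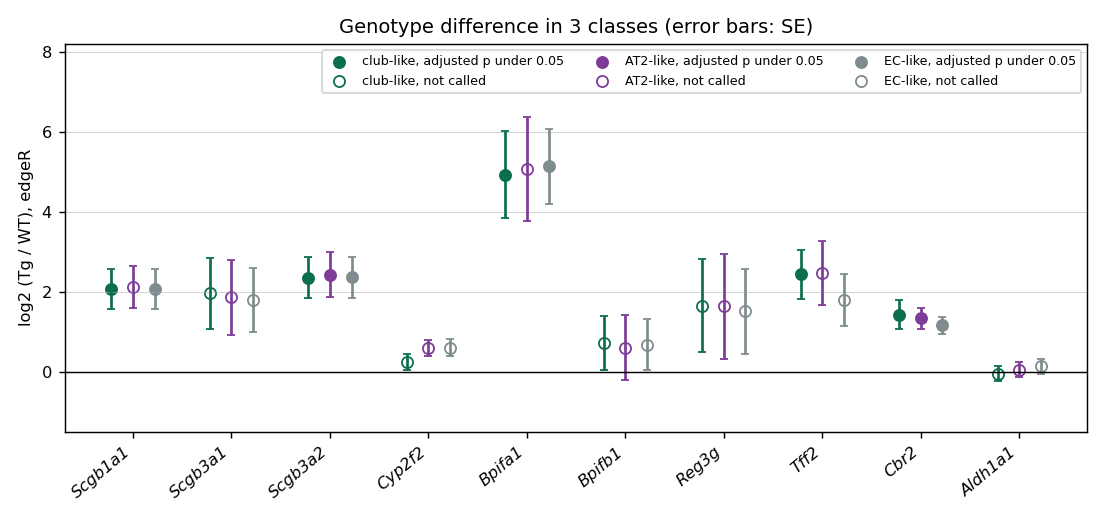
Log2 ratio of Tg over WT mice (2 mice each) with its standard error, from edgeR on UMIs summed per mouse, for the 10 genes in club-like, AT2-like and EC-like nuclei. Filled points passed an adjusted p of 0.05. For every gene but Aldh1a1, which lies near 0, all 3 classes are above 0.

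A test of the difference between the classes, the interaction of class and genotype in edgeR over club-like and EC-like sums, called none of the 10 genes, and neither did DESeq2. By edgeR 3 of the 10 had an unadjusted p under 0.05, Tff2 at 0.0032, Scgb3a1 at 0.011 and Reg3g at 0.032. The club-like change exceeded the EC-like change by 0.13 ± 0.15 on the log2 scale for Scgb1a1, 0.11 ± 0.13 for Scgb3a2, 0.36 ± 0.19 for Cbr2 and 0.84 ± 0.23 for Tff2 (edgeR, adjusted p = 0.37), and was below it for Cyp2f2, at -0.22 ± 0.17. Over all 15610 genes 2 were called, 0.0128%, and 1253 had an unadjusted p under 0.05. Without Tg replicate 2 it called Cbr2, at 0.54 ± 0.15 (edgeR, adjusted p = 0.047), beside 117 of 15985 genes. In such fits the lone mouse of a genotype is assumed to vary as the other genotype does.

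Tg replicate 1 carried many of the genotype calls. When 1 mouse was left out, the log2 fold change in club-like nuclei ran from 1.14 to 2.65 for Scgb1a1, 1.60 to 3.01 for Scgb3a2, 3.61 to 9.07 for Bpifa1, 1.60 to 3.44 for Tff2 and 0.91 to 1.83 for Cbr2, in each case lowest without Tg replicate 1. Without it, 1 of the 10 genes, Scgb1a1, was called in club-like nuclei, where 496 of 15244 genes were, and none in AT2-like or EC-like nuclei, where 3 and 0 genes of all genes tested were called (3068 and 1916 at an unadjusted p under 0.05). Without WT replicate 2, 3 of the 10 were called in club-like nuclei, Scgb3a2, Bpifa1 and Cbr2, beside 2021 of all 16542 genes tested. Scgb1a1 was not called there although its fold change was 2.08. Without WT replicate 1, 6 were, beside 990 of 16498 genes, among them Scgb3a1 at 4.32 (edgeR, adjusted p = 0.0034) and Reg3g at 5.64 (adjusted p = 0.0052), which rests on 26 UMIs in the lone WT mouse. Scgb1a1, at 2.03, and Cbr2, at 1.16, were then not called. DESeq2 called 3 in club-like nuclei, Scgb1a1, Scgb3a2 and Cbr2, beside 2709 of 15351 genes. With class calls from markers alone, edgeR called 3, Scgb3a1, Scgb3a2 and Bpifa1, beside 229 of 6054 genes, and Scgb1a1, at 2.26 ± 0.64, had an adjusted p of 0.081. When the empty-droplet profile was scaled to the Scgb1a1 level of each sum and subtracted, 34.1% to 45.9% of club-like UMIs were removed. By construction this leaves no Scgb1a1, and 4 of the 10 genes could then be tested in club-like nuclei, none of them called by edgeR, beside 238 of 12527 genes. Cyp2f2 had a log2 fold change of -0.02 ± 0.24, Cbr2 1.45 ± 0.45 (edgeR, adjusted p = 0.14) and Aldh1a1 -0.22 ± 0.25. Of Bpifb1 0, 3, 18 and 799 UMIs were left in WT replicates 1 and 2 and Tg replicates 1 and 2, so no fold is given. The same subtraction left 4 of 8 testable genes called in AT2-like nuclei, beside 339 of 14573 genes, and 2 of 6 in EC-like nuclei, beside 182 of 12179. It also left Cyp2f2 called in the interaction (edgeR, adjusted p = 0.027), beside 61 of 14109 genes. The Cyp2f2 calls rest on 0 UMIs left in both WT mice in AT2-like and in EC-like nuclei. In AT2-like nuclei Scgb3a1, Scgb3a2 and Aldh1a1 also had 0 UMIs left in both WT mice, and Bpifa1, Bpifb1 and Reg3g at most 4. Any call of those genes rests on counts that the subtraction set to or near 0.

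Other genes of the airway epithelium were read from lists that, like the 10 genes, were drawn up with earlier results of these lungs known. The counts stand against a background of 14.8% of genes called in club-like nuclei, 1625 higher and 649 lower in Tg mice with a median of 0.03, and 10.3% in EC-like nuclei, 1192 higher and 249 lower. Of 55 genes listed as mucosal defence, 32 were tested in club-like nuclei. By edgeR 7 of them rose in Tg mice and none fell, with a median log2 fold change of 0.36. The largest of these were Scgb1c1, at 3 and 9 UMIs in WT and 99 and 85 in Tg mice (2.73 ± 0.67, adjusted p = 0.045), Nupr1 at 2.36 ± 0.35 (adjusted p = 0.013), the protease inhibitor Slpi at 2.33 ± 0.39 (adjusted p = 0.018) and lactoferrin, Ltf, at 21.98 and 9.16 CPM in WT and 39.1 and 52.4 CPM in Tg mice (1.496 ± 0.381, adjusted p = 0.048). Slpi was at 14.2 and 37.4 CPM in WT and 128 and 138 CPM in Tg mice in club-like nuclei, and at 17.3, 50.6, 139 and 164 CPM in EC-like nuclei. In EC-like nuclei 6 of 28 genes of this list rose and none fell. Being on the list does not show a role in mucosal defence, which for Nupr1 was not tested.

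Of 48 genes of xenobiotic metabolism, 45 were tested in club-like nuclei, and 8 rose and none fell, with a median of 0.55. They include the glutathione transferase Gstm1, at 51.1 and 52.4 CPM in WT and 165 and 149 CPM in Tg mice (1.56 ± 0.15, edgeR, adjusted p = 0.0078). Gstp1, Cbr1 and Dcxr were at 2.16 ± 0.49, 1.72 ± 0.39 and 1.36 ± 0.25 (edgeR, adjusted p = 0.038, 0.037 and 0.024). Gstp1 was only at 1.18 and 1.12 CPM in WT and 6.78 and 4.04 CPM in Tg mice, so its call rests on few UMIs in WT mice. In EC-like nuclei 9 of 39 rose and 1 fell. Of 24 secretory regulators 2 rose, the Notch target Hes1 at 1.15 ± 0.28 and Cebpa at 0.90 ± 0.21, and 1 fell, the lung lineage factor Nkx2-1, which went from 260 and 202 CPM in WT to 108 and 141 CPM in Tg mice (-0.94 ± 0.18, edgeR, adjusted p = 0.027). Nkx2-1 was lower in EC-like nuclei of Tg mice too, at -0.90 ± 0.22 (edgeR, adjusted p = 0.046). None of 23 regulators tested in EC-like nuclei rose and 1 fell, while in AT2-like nuclei 2 of 24 rose and 1 fell. Of 17 genes of other airway cells 13 were tested and 1 fell, the ciliated cell gene Cfap299, at -1.65 ± 0.34 (edgeR, adjusted p = 0.031). In AT2-like and in EC-like nuclei 1 of 13 genes of this list fell too. In empty droplets Cfap299 was at 285 and 121 CPM in WT and 58.0 and 46.7 CPM in Tg mice.

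Across 62 sums of a class in a mouse, each of the 10 genes had other genes whose levels were most like its own. The Pearson correlation of log2(CPM + 10), given as a description since sums of a mouse share 1 library, was highest for Scgb1a1 with Ubb (0.980), Hmgb1 (0.959) and Ddt (0.954). Scgb3a1 was most like Reg3g (0.976), Wfdc2 and Lypd2, and Scgb3a2 most like Bpifa1 (0.976), Chchd10 and Tff2. Bpifa1 was most like Scgb3a2, Nupr1 and Chchd10, Reg3g most like Scgb3a1, Lypd2 and Wfdc2, and Tff2 most like Scgb3a2, Wfdc2 and Lypd2. Bpifb1 was most like Gsto1 (0.941), followed by Reg3g and Scgb3a1. Cyp2f2 was most like the club cell marker Pon1 (0.883), Slc16a11 and B430010I23Rik, Cbr2 most like Naxd (0.930), Hp and Mgst1, and Aldh1a1 most like Pir (0.849), Vegfd and Pdgfrl. The lowest correlation among the 45 pairs of the 10 genes was that of Scgb1a1 with Aldh1a1, at 0.1004.

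Club-like nuclei made up 14.9% and 7.18% of classed nuclei in WT mice and 15.3% and 15.6% in Tg mice. The classed nuclei of Tg replicate 2 include 1673 called lymphatic EC-like, which almost lacked the markers of that class. The difference of 4.40 percentage points had p = 0.33 by a two-sided exact permutation test, which is the smallest p that 2 against 2 mice can give, and WT replicate 1 was within 1 point of the Tg mice. Over all barcodes of 1500 or more UMIs, most of them unclassed in WT mice, the shares were 5.84% and 2.35% in WT and 13.5% and 11.4% in Tg mice, a difference of 8.39 points (p = 0.33, exact permutation test). With a minimum of 3000 UMIs the difference was 1.85 points (p = 1.0, exact permutation test).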

How the data were processed

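Lungs of 4 mice were profiled by single-nucleus RNA-seq (10x Chromium 3′). The authors ran Cell Ranger 6.1.1 on mm10, counting intronic reads, and deposited unfiltered UMI counts per gene and barcode. Their later filters and free-RNA correction are not in these tables. The 10 genes and all lists were chosen with earlier results of these data known.

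Barcodes of 1500 or more UMIs were given to classes by a multinomial likelihood seeded on marker genes, with the 10 genes left out, and barcodes of 300 to 800 UMIs were pooled as empty droplets. Calls from markers alone had been planned as the main ones, and the likelihood took their place after the data were seen, since markers alone left few club-like and AT2-like nuclei. Barcodes with markers of several lineages were set aside as doublets, and no doublet caller was run. UMIs were summed per mouse and class. Levels are UMIs per 1000000 of the sum (CPM), and intervals are exact Poisson intervals of 95%, covering counting error only. Shares were compared after thinning each nucleus to 1500 UMIs.

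Genotypes were compared with edgeR 4.0.16 (R 4.3.3; TMM, genes with a minimum of 10 UMIs, quasi-likelihood test, Benjamini-Hochberg over all genes, threshold 0.05), tested on simulated data, with DESeq2 1.42.0 as an alternative. The simulated counts had a fixed dispersion and no free RNA shared within a mouse, so they do not show the error rates in these mice. The interaction fit had a term for each mouse. Named genes are the 10, up to 4 called genes of each list with the largest change in club-like nuclei, and the 3 genes most correlated with each of the 10. Classes against each other, and empty droplets between genotypes, were given no test. 1 of the 2 genes called in the interaction fit is not reported here. Each mouse is 1 library, so p-values rest on 2 against 2 mice. Alternatives were DESeq2, no filter on low counts, other UMI minimums, mixed nuclei kept, library sizes without the 10 genes, the empty-droplet profile subtracted, the replicate number as a block, and leaving out each mouse. The replicate numbers were not taken to pair mice: no label says so, and over genes the deviations of same-numbered mice correlated at 0.03 in club-like, 0.15 in AT2-like and 0.14 in EC-like nuclei.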

Additional observations from a re-analysis of the deposited data

Results flagged for a closer look

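In the interaction of class and genotype, St8sia6, a sialyltransferase gene outside the 10, changed differently in club-like and EC-like nuclei by edgeR's quasi-likelihood test with Benjamini-Hochberg adjustment. It was at 50.9, 35.3, 32.3 and 93.3 CPM in club-like nuclei of WT replicates 1 and 2 and Tg replicates 1 and 2, and at 43.5, 21.9, 9.49 and 17.5 CPM in EC-like nuclei. The club-like change exceeded the EC-like change by 1.86 ± 0.25 on the log2 scale (adjusted p = 0.040), and in club-like nuclei its genotypes overlapped. The gene was named after its values were seen, and without either WT replicate the same test called 0 genes (1169 and 1319 at an unadjusted p under 0.05).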

How the results depend on the processing

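The main counts of genes called between genotypes were 2274 in club-like, 2064 in AT2-like and 1441 in EC-like nuclei, and 2 for the interaction. Leaving out 1 mouse gave 496 to 2197, 3 to 3627, 0 to 2251 and 0 to 117, and the lowest count came without Tg replicate 1 in all 3 classes. With no filter on low counts the same 4 counts were 4377, 4992, 3030 and 124, and with the empty-droplet profile subtracted 238, 339, 182 and 61. The class calls from markers alone, planned as the main ones and replaced after the data were seen, gave 229 in club-like and 1227 in AT2-like nuclei and 5 for the interaction. DESeq2 gave 3145 in AT2-like nuclei and 1 for the interaction, a minimum of 3000 UMIs gave 771 in EC-like nuclei and 1 for the interaction, and AT2-like in place of EC-like nuclei, added after seeing the data, gave 7. With the replicate number as a block, 2884 genes were called in club-like, 3531 in AT2-like and 2466 in EC-like nuclei, and 7, 7 and 8 of the 10 genes. The numbers were not taken to pair mice. The difference in the share of club-like nuclei was -0.247 percentage points with markers alone, and 0.560 to 8.23 when 1 mouse was left out. The log2 ratio for the 10 genes in empty droplets was 1.35 to 2.33 when 1 mouse was left out, except 2.79 without Tg replicate 2. It was 2.20 in droplets of 100 to 300 UMIs and 1.97 in those of 10 to 100 UMIs. Without Scgb1a1 the ratio was 1.38. In unclassed barcodes of 1500 or more UMIs, which are not empty droplets by these limits, it was 1.29 for the 10 genes.

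In club-like nuclei, values that turned sign were Cyp2f2 at -0.015 with the profile subtracted, Bpifb1, from -0.069 to 2.58 when 1 mouse was left out, and Aldh1a1, from -0.23 to 0.13 likewise and 0.19 with markers alone. For the club-like minus EC-like change, leaving out 1 mouse turned the sign of Scgb1a1 (-0.0090 to 0.16), Scgb3a2 (-0.011 to 0.14), Cyp2f2 (-0.51 to 0.053), Bpifa1 (-0.15 to 0.90), Bpifb1 (-0.30 to 0.66) and Aldh1a1 (-0.32 to 0.23). Against AT2-like nuclei Scgb1a1 and Scgb3a2 were at -0.097 and -0.13, Bpifa1 was at 6.38 with markers alone, and Cbr2 was at -1.32 with the profile subtracted. No value was called with its sign turned, whereas Bpifb1 was called with its sign kept at 2.58 without WT replicate 1 (edgeR, adjusted p = 0.0034), and the causes were not tested. Of the other values of single genes, 272 kept direction and side of the threshold, 10 became called, 14 lost their call and 15 moved by more than the spread between mice. Depth limits Bpifa1, Tff2 and Reg3g, which rest on 2, 25 and 26 UMIs in club-like nuclei of WT replicate 2.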
